A study of Homo sapiens with 9 samples.

Results

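The translation initiation and elongation factors of LAN5 neuroblastoma cells were described by the transcripts of 67 genes, out of 25084 genes in the deposited table. The members are the genes whose symbol begins with EIF1 to EIF6, EEF1 or EEF2, which takes in the factors, their inhibitors and the enzymes that modify them. EEF1E1, whose protein belongs to the aminoacyl-tRNA synthetase complex, and 44 symbols with a pseudogene ending were left out. Of the 67 members, 64 reached 1 CPM (counts per library, each brought to a common total) in at least 3 libraries and were tested, and 3 did not (EIF2S3B, EIF4EBP3 and EIF5AL1).

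LAN5 is an established human neuroblastoma line with amplified MYCN, and it was the only line used. All cells received a small interfering RNA (siRNA) by nucleofection, a form of electroporation, and RNA was taken 72 h later. There were 3 libraries per group, where siCTR received a control siRNA, siMYCN one directed at MYCN (siMYCN_2 in the labels) and siHAND2 one directed at HAND2 (siHAND2_3 in the labels), so each target was represented by 1 siRNA label. The labels do not say whether the libraries of a group came from separate cultures, so p-values measure the spread between these libraries, which may be technical.

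Translation initiation begins when eIF2, bound to GTP and initiator tRNA, joins the small ribosomal subunit with eIF1, eIF1A, eIF3 and eIF5, while the eIF4F complex brings the capped mRNA. After the start codon is found and the large subunit has joined, eEF1A delivers aminoacyl-tRNAs, the eEF1B complex recycles eEF1A to its GTP form, eEF2 moves the ribosome along, and eIF5A, which carries the modified amino acid hypusine, helps at stretches where synthesis stalls. MYCN is a transcription factor whose amplification marks a high-risk form of neuroblastoma and which is known for driving genes of ribosomes and protein synthesis; HAND2 is a transcription factor of the sympathetic nervous system lineage.

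Depth, read from the smallest step of the CPM values, was 21.0 to 32.7 M assigned reads per library, which gives a counting error of at most 21.8% at 1 CPM and 2.18% at 100 CPM. These figures are approximate, since the coarsest fitting step was taken and only 80.1% to 82.3% of low values were whole steps. The mean of MYCN was 70.0% of siCTR in siMYCN and 49.6% in siHAND2, and that of HAND2 was 114% and 54.2%, so MYCN was lower in both knockdowns. Of the noradrenergic markers, CHGA lay at 326.9 to 413 CPM, DBH at 126.5 to 361 CPM and PHOX2A at 76.2 to 105 CPM, whereas TH, the first enzyme of catecholamine synthesis, lay at only 1.18 to 4.42 CPM. PTPRC (leukocytes) and PECAM1 (endothelium) did not exceed 0.0710 CPM in any library, and CD68 (macrophages) did not exceed 0.621 CPM. Between libraries of a group, the counts implied by the CPM differed beyond counting noise in every pair (chi-square per degree of freedom 2.91 to 8.92), and siHAND2 replicate 3 stood farthest from its group. No library was a copy of another.

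Transcripts of these genes took a smaller share of the RNA in both knockdowns. Their summed level was 29679 ± 683 CPM in siCTR (SD, n = 3), 25288 ± 363 CPM in siMYCN and 27498 ± 397 CPM in siHAND2, which is 2.97%, 2.53% and 2.75% of all assigned reads. The 3 groups did not overlap: siCTR libraries lay between 29013 and 30377 CPM, siHAND2 libraries between 27074 and 27859 CPM and siMYCN libraries between 25036 and 25704 CPM. EEF1A1 alone made up 42.7%, 42.5% and 44.2% of these sums. CPM is a share of each library, so a lower value does not show a lower amount per cell, and in bulk RNA fewer cells of a type and less RNA per cell cannot be told apart.

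Gene by gene, differences were tested with limma on log2(CPM + 1), with Benjamini-Hochberg adjusted p-values taken over the 14495 genes past the filter and a threshold of 0.05. In siMYCN, 28 of the 64 members fell and 4 rose against siCTR (EEF1A2, EIF1B, EIF4E3 and EIF4G2), while 32 did not pass the test. Over all genes tested, 35.9% were called in this comparison, 11.4% lower and 24.5% higher. The median log2 fold change was -0.10 over the members and 0.06 over all genes. In siHAND2, 24 members fell and 3 rose (EIF4E3, EIF4G2 and EIF4G3), beside 29.9% of all genes called, 11.8% lower and 18.1% higher. Here the median was -0.11 over the members and 0.04 over all genes. All 3 siMYCN libraries lay below all 3 siCTR libraries for 34 members, beside 16.1% of all genes tested. For siHAND2 that number was 29 members, beside 16.6% of all genes. All 3 libraries lay above siCTR for 8 members in siMYCN, beside 33.4% of all genes, and for 5 in siHAND2, beside 25.8%.

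Both comparisons use the same siCTR libraries, so their calls are not independent, and the values of each are given side by side. EEF1A2 was called higher in siMYCN and lower in siHAND2. In siMYCN, 25 of the 28 lower calls held under all 18 alternative settings tried, and in siHAND2 11 of the 24 did. The number called lower in siHAND2 was 12 without siCTR replicate 2. Rescaling the libraries by the median ratio raised the number of members called lower to 37 in siMYCN and 34 in siHAND2, while the share of higher calls among all genes called went from 68.3% to 50.6% in siMYCN and from 60.6% to 45.6% in siHAND2.

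**Figure D1:**
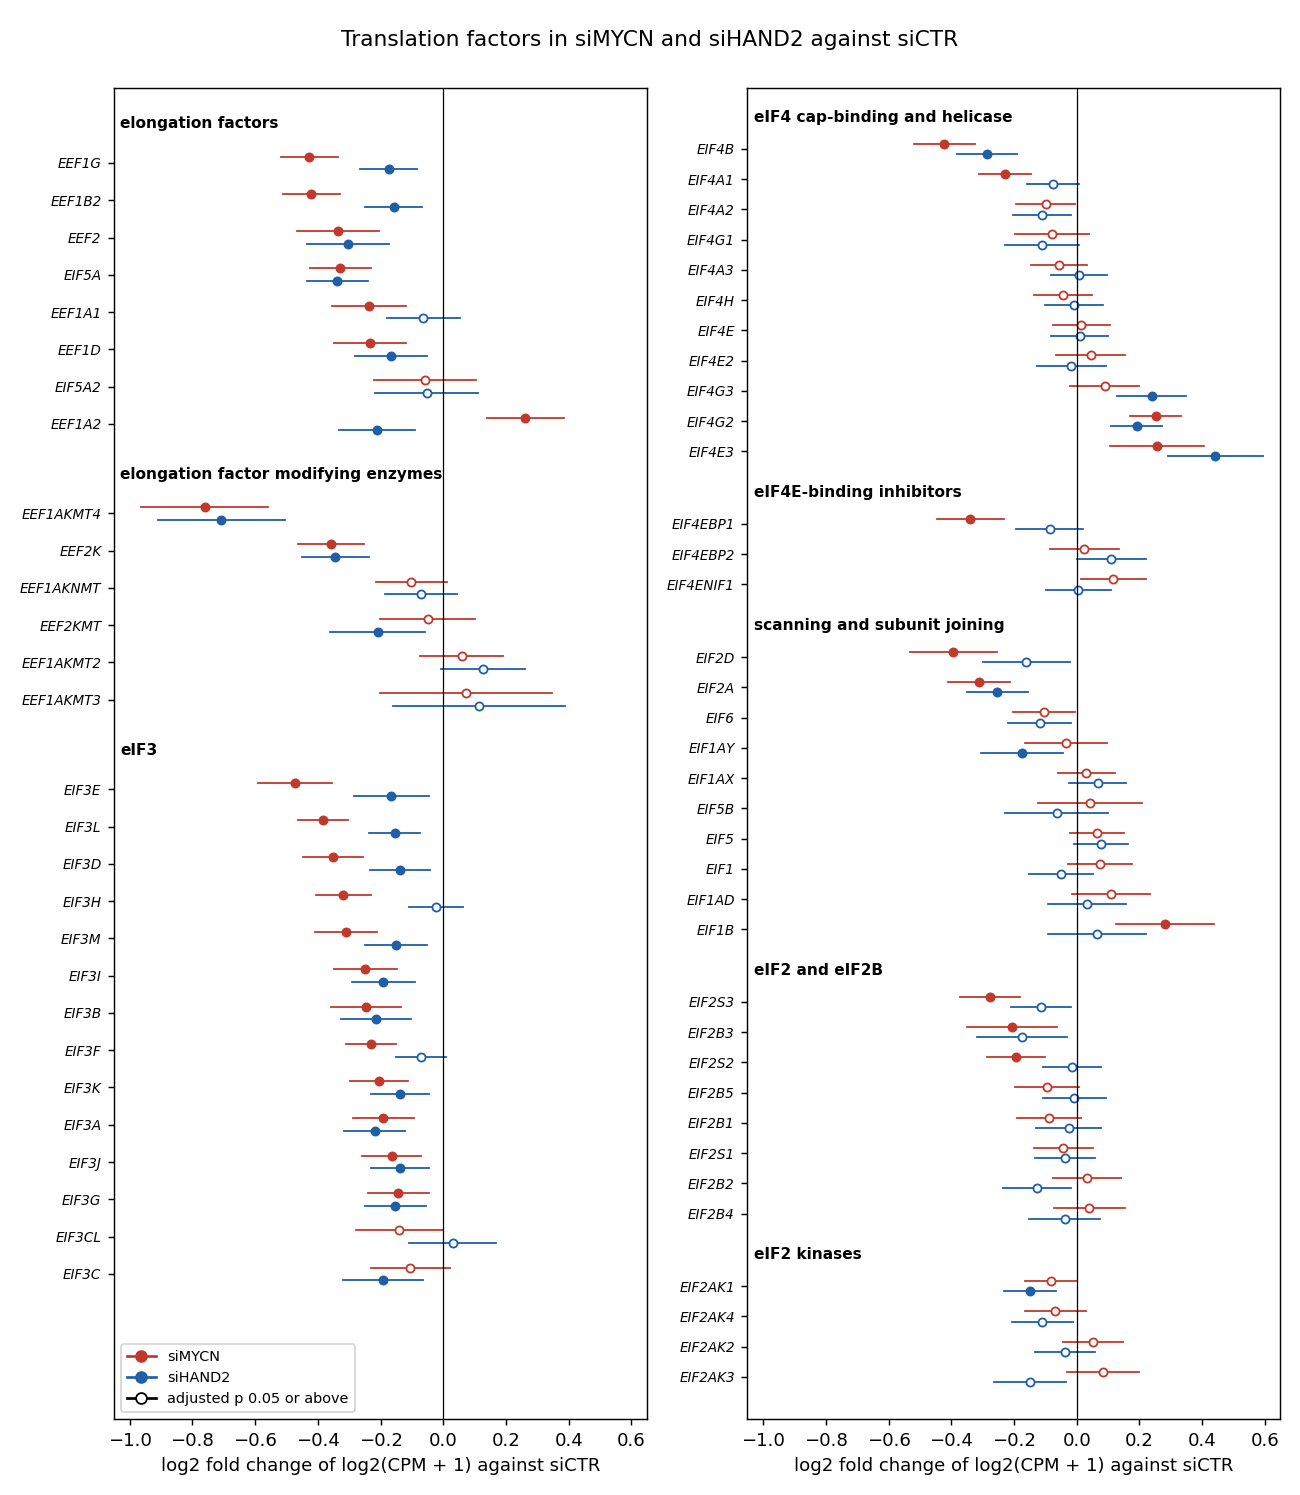
Log2 fold changes on the log2(CPM + 1) scale of the 64 tested members, by role, in siMYCN (red) and siHAND2 (blue) against siCTR; bars are 95% confidence intervals from limma and open circles did not pass an adjusted p of 0.05. The elongation factors and eIF3 subunits lie mostly left of 0, while the eIF4 and scanning groups lie on both sides of it in each comparison.

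The shares called differed in size between the roles, and no test of the difference between roles was made; they are read beside the 11.4% of all genes called lower and 24.5% called higher in siMYCN, and 11.8% and 18.1% in siHAND2. Elongation factors were called lower in 6 of 8 tested members in siMYCN and 6 of 8 in siHAND2, and eIF3 subunits in 12 of 14 and 11 of 14. By contrast, of the 11 eIF4 cap-binding and helicase genes, 2 were called lower and 2 higher in siMYCN, and 1 lower and 3 higher in siHAND2. The scanning and subunit-joining group of 10 genes also takes in EIF1AD, EIF2A, EIF2D and EIF6. Of the 10, 2 were called lower (EIF2A and EIF2D) and 1 higher in siMYCN, and 2 lower in siHAND2. These counts were not far from the shares over all genes. The 4 kinases that phosphorylate eIF2 had 0 calls with limma in siMYCN, where 0 had an unadjusted p under 0.05 either, and 1 call in siHAND2, where 3 had an unadjusted p under 0.05 and all 4 log2 fold changes were negative. The cytosolic ribosomal protein genes, the other large group of the protein synthesis machinery, were called lower in 80 of 82 in siMYCN (median log2 fold change -0.45) and in 59 of 82 in siHAND2 (median -0.16).

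**Figure D2:**
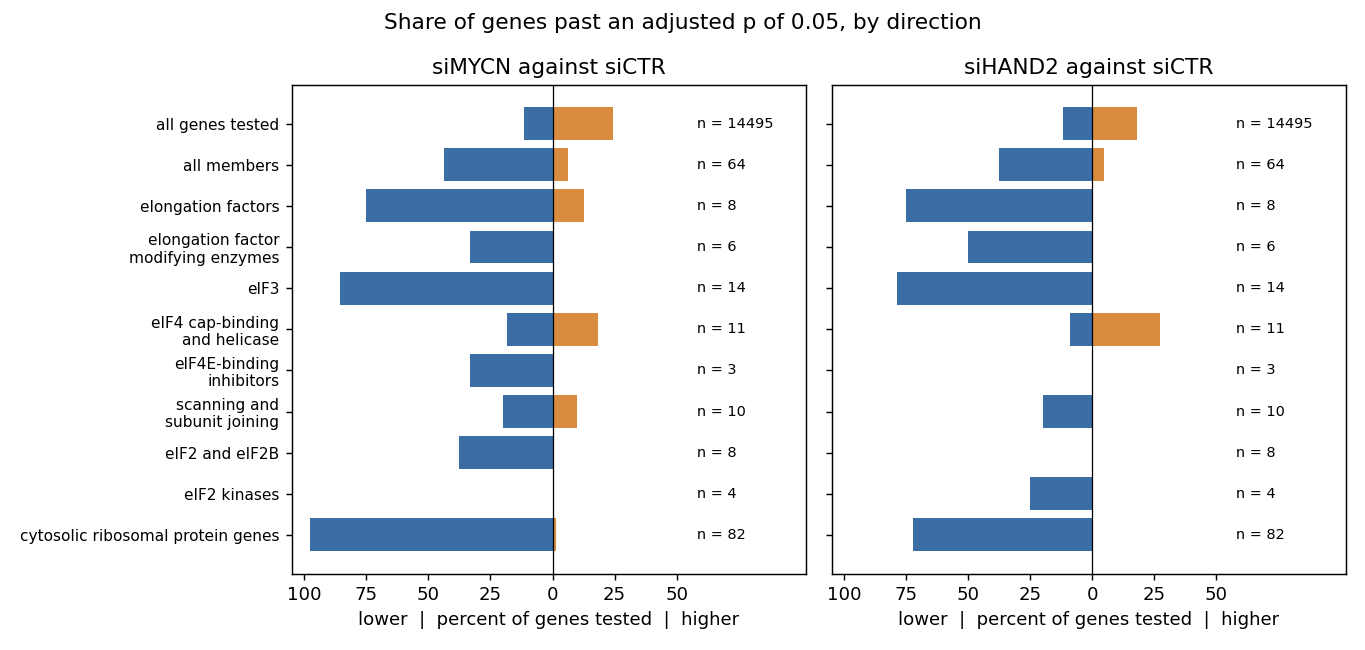
Percent of the tested genes called lower (blue, left of 0) and higher (orange, right of 0) at an adjusted p of 0.05 in each role group, beside all 14495 genes and the cytosolic ribosomal protein genes. The eIF3 subunits and elongation factors have the largest lower shares among the role groups in both comparisons, below the share of ribosomal protein genes in siMYCN.

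The elongation factors held most of the reads of the whole set, 19216 ± 550.4 CPM in siCTR, and their sum was 82.6% of that in siMYCN and 92.1% in siHAND2. Per kilobase of the canonical transcript, siCTR levels ran from EEF1A1 at 3612 CPM per kb through EEF1G at 1655, EEF2 at 870.1 and EEF1B2 at 832 to EIF5A at 236, EEF1A2 at 110.2 and EEF1D at 99.9, with EIF5A2 at 2.37. EEF2 and EEF1B2 were next to each other in this order, as were EEF1A2 and EEF1D, and no test of the order was made.

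EEF1A1 (chromosome 6, 73515750 to 73523797, minus strand, GRCh38), the main carrier of aminoacyl-tRNAs to the ribosome, measured 12472, 13110.3 and 12478 CPM with siCTR, 10854, 10809 and 10611 CPM with siMYCN and 12227, 11812 and 12388 CPM with siHAND2. Its siMYCN libraries lay below all siCTR libraries, and its siHAND2 libraries lay between, just under the lowest siCTR library. The fall in siMYCN passed the test (log2 fold change -0.24, SE 0.056, limma adjusted p = 0.00339), whereas the difference in siHAND2 did not (log2 fold change -0.063, SE 0.056, limma adjusted p = 0.425). EEF1A1 has many processed pseudogenes, and how reads matching several genes were counted is not given in the sources used here. The siMYCN call was not made when genes of low level were kept in the fit (limma adjusted p = 0.173).

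EEF1A2 (chromosome 20, 63488014 to 63499185, minus strand) encodes the second eEF1A protein, which in the body is found mainly in neurons and muscle and takes over there from eEF1A1. It measured 203, 205 and 178 CPM with siCTR, 243, 229 and 231 CPM with siMYCN and 179.6, 169.7 and 157 CPM with siHAND2. The siMYCN libraries were all above siCTR and the siHAND2 libraries were low, with 1 of them inside the siCTR range. EEF1A2 rose in siMYCN (log2 fold change 0.26, SE 0.057, limma adjusted p = 0.00206) and fell in siHAND2 (log2 fold change -0.21, SE 0.057, limma adjusted p = 0.0106). The fall in siHAND2 did not pass without some control libraries (limma adjusted p = 0.0571 without siCTR replicate 1 and 0.0642 without siCTR replicate 2). Taken directly, siHAND2 was lower than siMYCN (log2 fold change -0.47, SE 0.057, limma adjusted p = 9.60e-06). As a share of the EEF1A1 and EEF1A2 levels per kilobase, EEF1A2 was 3.13%, 3.00% and 2.75% with siCTR, 4.24%, 4.03% and 4.13% with siMYCN and 2.83%, 2.77% and 2.44% with siHAND2, so the siMYCN range stood apart from both others.

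The eEF1B complex, which exchanges GDP for GTP on eEF1A, is encoded by EEF1B2 and EEF1D, which carry the exchange activity, and EEF1G, which holds the complex together. EEF1G (chromosome 11, 62559596 to 62574086, minus strand) measured 2399, 2451 and 2329 CPM with siCTR, 1821, 1775 and 1743 CPM with siMYCN and 2129.6, 2171 and 2062 CPM with siHAND2. The 3 groups did not overlap, with siMYCN lowest and siHAND2 between. EEF1G fell in siMYCN (log2 fold change -0.43, SE 0.043, limma adjusted p = 1.80e-06) and by less than that in siHAND2 (log2 fold change -0.17, SE 0.043, limma adjusted p = 0.00610), and siHAND2 was higher than siMYCN when tested directly (log2 fold change 0.25, SE 0.043, limma adjusted p = 3.27e-04). The siHAND2 call of EEF1G was not made when genes of low level were kept in the fit (limma adjusted p = 0.0514). EEF1B2 (chromosome 2, 206159585 to 206162928, plus strand) measured 673, 688 and 655 CPM with siCTR, 499.6, 526 and 481 CPM with siMYCN and 597, 585 and 623 CPM with siHAND2. It had the same order without overlap: it fell in siMYCN (log2 fold change -0.42, SE 0.043, limma adjusted p = 2.17e-06) and in siHAND2 (log2 fold change -0.16, SE 0.043, limma adjusted p = 0.0114), with siHAND2 above siMYCN (log2 fold change 0.26, SE 0.043, limma adjusted p = 2.42e-04). The siHAND2 call for EEF1B2 did not pass without 1 of 2 libraries (limma adjusted p = 0.0598 without siCTR replicate 2 and 0.0511 without siHAND2 replicate 2). EEF1D fell in siMYCN (log2 fold change -0.23) and in siHAND2 (-0.17), the latter call being lost without siCTR replicate 1 or 2 or siHAND2 replicate 3.

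EEF2 (chromosome 19, 3976056 to 3985463, minus strand), the translocase that moves the ribosome by 1 codon, measured 2845, 2816 and 2582 CPM with siCTR, 2328, 2084 and 2116 CPM with siMYCN and 2362, 2284 and 2032 CPM with siHAND2. Both knockdowns lay below siCTR without overlap, and they overlapped each other. EEF2 fell in siMYCN (log2 fold change -0.34, SE 0.062, limma adjusted p = 5.04e-04) and in siHAND2 (log2 fold change -0.31, SE 0.062, limma adjusted p = 0.00137). EIF5A (chromosome 17, 7306999 to 7312463, plus strand), the hypusine-bearing factor, measured 298, 308 and 291 CPM with siCTR, 251, 229 and 234 CPM with siMYCN and 244, 240.4 and 225 CPM with siHAND2. It had the same layout, with a fall in siMYCN (log2 fold change -0.33, SE 0.045, limma adjusted p = 4.00e-05) and in siHAND2 (log2 fold change -0.34, SE 0.045, limma adjusted p = 3.18e-05). EIF5AL1, a near copy of EIF5A, lay at 0.161 to 0.545 CPM and was not tested, and reads shared between the copies could have been split. EIF5A2, the second hypusine-bearing paralog, measured 13.7, 13.5 and 12.2 CPM with siCTR, 12.2, 12.04 and 13.5 CPM with siMYCN and 11.7, 12.5 and 13.7 CPM with siHAND2. Its groups overlapped in both comparisons, and the 95% confidence interval of its log2 fold change was -0.22 to 0.11 in siMYCN and -0.22 to 0.11 in siHAND2.

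**Figure D3:**
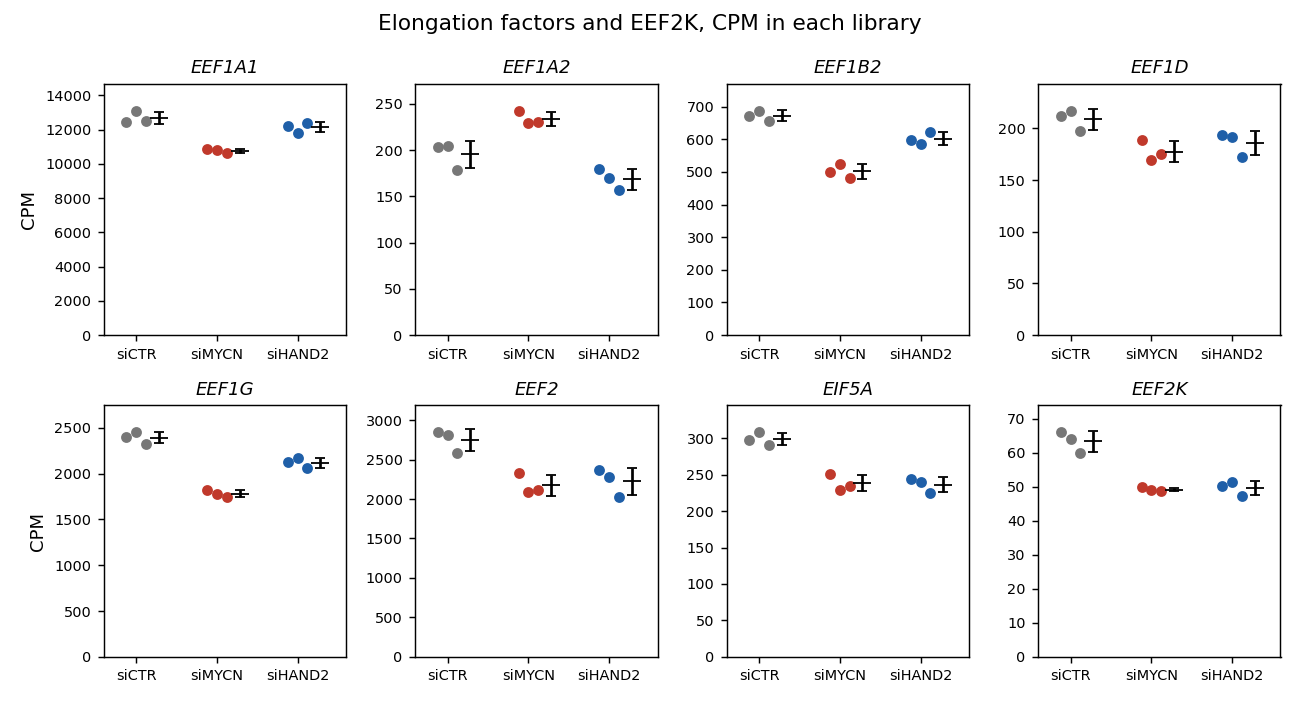
CPM in each library (points) with the mean and SD over 3 libraries (bars) for 7 elongation factors and EEF2K, each on its own linear axis from 0. EEF1G and EEF1B2 step down from siCTR to siHAND2 to siMYCN, EEF2, EIF5A and EEF2K lie at like levels in both knockdowns, and EEF1A2 is above siCTR only in siMYCN.

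Of the 6 enzymes that modify elongation factors, 2 fell in siMYCN and 3 in siHAND2, beside 11.4% and 11.8% of all genes tested. EEF2K (chromosome 16, 22206278 to 22288738, plus strand), the calcium- and calmodulin-dependent kinase that phosphorylates and slows eEF2, measured 66.0, 64.0 and 60.1 CPM with siCTR, 49.8, 49.0 and 48.7 CPM with siMYCN and 50.1, 51.5 and 47.3 CPM with siHAND2. All knockdown libraries lay below all siCTR libraries, with a fall in siMYCN (log2 fold change -0.36, SE 0.050, limma adjusted p = 4.49e-05) and in siHAND2 (log2 fold change -0.34, SE 0.050, limma adjusted p = 7.15e-05). EEF2KMT, which methylates a lysine of eEF2, measured 17.7, 17.8 and 16.7 CPM with siCTR, 17.2, 17 and 16.1 CPM with siMYCN and 14.4, 16.6 and 13.8 CPM with siHAND2. The siHAND2 libraries lay below siCTR, 1 of them by a narrow margin. EEF2KMT fell in siHAND2 (log2 fold change -0.21, SE 0.072, limma adjusted p = 0.0372) and not in siMYCN (log2 fold change -0.050, SE 0.072, limma adjusted p = 0.627). The siHAND2 call rested on single libraries, since the adjusted p was 0.109 without siCTR replicate 1, 0.115 without siCTR replicate 2, 0.101 without siHAND2 replicate 1 and 0.114 without siHAND2 replicate 3.

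EEF1AKMT4, a lysine methyltransferase of eEF1A, had the largest change of the tested members and is named here after its values were seen, since its mean level is under 5 CPM. It measured 6.57, 8.01 and 6.74 CPM with siCTR, 4.07, 3.80 and 3.46 CPM with siMYCN and 4.01, 3.90 and 3.93 CPM with siHAND2. The siCTR libraries stood clear of both knockdowns, which overlapped each other. EEF1AKMT4 fell in siMYCN (log2 fold change -0.76, SE 0.095, limma adjusted p = 1.47e-05) and in siHAND2 (log2 fold change -0.71, SE 0.095, limma adjusted p = 3.22e-05), a fall of 46.9% and 44.4% in mean CPM. A readthrough transcript joins this gene to its neighbour ECE2, and reads of the 2 cannot be told apart in a gene-level value. EEF1AKMT2, EEF1AKMT3 and EEF1AKNMT, which methylate eEF1A at other residues, did not pass in either knockdown, with log2 fold changes from -0.10 to 0.13.

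eIF3 is the largest initiation factor, a scaffold on the small subunit that holds the other factors and contacts eIF4G. Its 14 genes summed to 3503 ± 66.7 CPM in siCTR, and the sums were 83.2% of that in siMYCN and 89.9% in siHAND2. All 14 log2 fold changes were negative in siMYCN, from -0.47 to -0.10, and 13 of 14 were negative in siHAND2, from -0.22 to 0.030. In siMYCN all but EIF3C and EIF3CL passed the test. In siHAND2 all but EIF3CL, EIF3F and EIF3H did. Under all 18 alternative settings 11 of the 12 siMYCN calls held, EIF3G being the exception, and 4 of the 11 siHAND2 calls did (EIF3A, EIF3B, EIF3I and EIF3L).

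EIF3E, a subunit that budding yeast lacks, measured 405, 421 and 398 CPM with siCTR, 284, 303 and 293 CPM with siMYCN and 346, 341 and 406 CPM with siHAND2. The siMYCN libraries were all far below siCTR, while siHAND2 replicate 3 lay inside the siCTR range. EIF3E fell in siMYCN (log2 fold change -0.47, SE 0.056, limma adjusted p = 8.57e-06), the largest fall among the eIF3 genes. In siHAND2 it fell by 0.17 on the log2 scale (limma adjusted p = 0.0349), and that call did not hold in several fits (limma adjusted p = 0.0752 without siCTR replicate 1, 0.133 without siCTR replicate 2, 0.120 without siHAND2 replicate 1 and 0.163 without siHAND2 replicate 2). EIF3L (chromosome 22, 37848868 to 37889407, plus strand), a partner of EIF3E and EIF3K within the complex, measured 563, 585 and 558 CPM with siCTR, 444, 429 and 435 CPM with siMYCN and 516, 501 and 516 CPM with siHAND2. Its 3 groups did not overlap, with siMYCN lowest: it fell in siMYCN (log2 fold change -0.38, SE 0.038, limma adjusted p = 1.48e-06) and in siHAND2 (log2 fold change -0.15, SE 0.038, limma adjusted p = 0.00569), and siHAND2 was above siMYCN (log2 fold change 0.23, SE 0.038, limma adjusted p = 2.52e-04).

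EIF3A (chromosome 10, 119033670 to 119080823, minus strand), the largest subunit and a core of the complex, measured 485, 463 and 461 CPM with siCTR, 420.3, 399 and 415 CPM with siMYCN and 426, 407 and 379 CPM with siHAND2. Both knockdowns lay below siCTR and overlapped each other. It fell in siMYCN (log2 fold change -0.19, SE 0.046, limma adjusted p = 0.00396) and in siHAND2 (log2 fold change -0.22, SE 0.046, limma adjusted p = 0.00181), and the 95% confidence interval of siHAND2 against siMYCN was -0.12 to 0.069. EIF3B (chromosome 7, 2354086 to 2380745, plus strand), the other core subunit, measured 236, 224 and 224 CPM with siCTR, 207, 179.6 and 191 CPM with siMYCN and 209, 190.1 and 191 CPM with siHAND2. The layout was that of EIF3A, with a fall in siMYCN (log2 fold change -0.25, SE 0.052, limma adjusted p = 0.00172) and in siHAND2 (log2 fold change -0.21, SE 0.052, limma adjusted p = 0.00550) and an interval of -0.080 to 0.14 between the knockdowns.

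The eIF3 subunits were also described in sets divided after the values were seen, and no test compared the sets. The 5 subunits of the stable core complex of budding yeast (EIF3A, EIF3B, EIF3C, EIF3G and EIF3I) had a median log2 fold change of -0.19 in siMYCN, with 4 of 5 called lower, and -0.19 in siHAND2, with 5 of 5 called lower. None of the 5 was called between siHAND2 and siMYCN (limma; median log2 difference -0.0095), with no unadjusted p under 0.05 either. The 7 further subunits of the mammalian complex (EIF3D, EIF3E, EIF3F, EIF3H, EIF3K, EIF3L and EIF3M) had medians of -0.32 in siMYCN, with 7 of 7 called lower, and -0.14 in siHAND2, with 5 of 7 called lower. Of these 7, 6 were called higher in siHAND2 than in siMYCN (median log2 difference 0.21), beside 11.4% of all genes tested; EIF3K was the exception (log2 fold change 0.068, SE 0.044, limma adjusted p = 0.277), and the call of EIF3M was lost without the intensity trend, without siMYCN replicate 2 and without siHAND2 replicate 3. EIF3J, a loosely bound subunit with a yeast counterpart outside that core, fell in both (log2 fold change -0.16 and -0.14). EIF3C and EIF3CL are near-identical copies whose reads could have been split, so their separate values are uncertain.

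**Figure D4:**
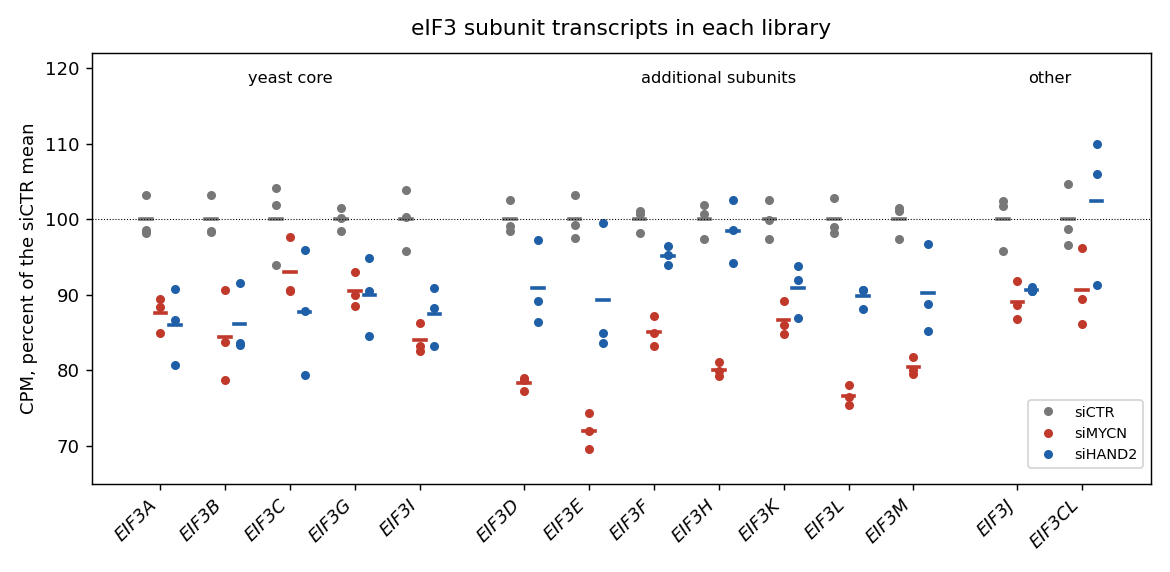
CPM of each eIF3 gene in each library as percent of its siCTR mean, with short bars at the group means. Among the 5 subunits of the yeast core the siMYCN and siHAND2 points lie at like heights, while for 6 of the 7 additional subunits all siMYCN points lie below the siHAND2 points.

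The eIF4F complex brings mRNA to the ribosome: eIF4E binds the cap, eIF4G is the scaffold, and the helicase eIF4A unwinds structure with the help of eIF4B and eIF4H. EIF4E (chromosome 4, 98871684 to 98930637, minus strand), the cap-binding protein, measured 143, 145 and 146 CPM with siCTR, 143, 144 and 151 CPM with siMYCN and 142, 142 and 153 CPM with siHAND2. The groups overlapped fully. The 95% confidence interval of its log2 fold change was -0.076 to 0.11 in siMYCN and -0.082 to 0.0999 in siHAND2, and the sign turned from positive to negative in both under median-ratio rescaling and quantile normalization. EIF4B (chromosome 12, 53006158 to 53042209, plus strand), which stimulates the helicase, measured 1063, 1075 and 974 CPM with siCTR, 797, 747 and 777 CPM with siMYCN and 871, 837 and 841 CPM with siHAND2. It lay without overlap below siCTR in both knockdowns, and fell in siMYCN (log2 fold change -0.42, SE 0.046, limma adjusted p = 3.36e-06) and in siHAND2 (log2 fold change -0.29, SE 0.046, limma adjusted p = 1.72e-04).

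EIF4E3 (chromosome 3, 71675414 to 71754773, minus strand), a member of the eIF4E family with an atypical way of binding the cap, went the other way. It measured 15.2, 17.2 and 16.8 CPM with siCTR, 18.4, 20.3 and 20.6 CPM with siMYCN and 21.0, 24.1 and 22.9 CPM with siHAND2. All knockdown libraries exceeded all siCTR libraries, with a rise in siMYCN (log2 fold change 0.26, SE 0.071, limma adjusted p = 0.0103) and in siHAND2 (log2 fold change 0.44, SE 0.071, limma adjusted p = 1.86e-04). The siMYCN call did not hold without 1 control library (limma adjusted p = 0.0605 without siCTR replicate 1). Nor did it hold under quantile normalization (log2 fold change 0.17, limma adjusted p = 0.0686). The scaffolds also differed among themselves, and the following were named after their values were seen. EIF4G2 (also called DAP5), which lacks the eIF4E-binding site and serves cap-independent initiation, measured 622, 597 and 617 CPM with siCTR, 723, 718 and 745 CPM with siMYCN and 692, 691 and 713 CPM with siHAND2. It rose in both, with log2 fold changes of 0.25 (limma adjusted p = 9.56e-05) and 0.19 (limma adjusted p = 0.00127). EIF4G3 rose in siHAND2 (log2 fold change 0.24, SE 0.051, limma adjusted p = 0.00224), and EIF4G1, the main scaffold, did not pass in either (-0.079 and -0.11). Of the helicases, EIF4A1 fell in siMYCN (log2 fold change -0.23, SE 0.039, limma adjusted p = 2.65e-04), and EIF4A2 and EIF4A3 did not pass in either knockdown. A readthrough gene, SENP3-EIF4A1, is listed apart at 1.07 to 4.73 CPM, and reads over the shared exons could have gone to either.

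The eIF4E-binding proteins hold eIF4E away from eIF4G until mTOR phosphorylates them. EIF4EBP1, the best known of them, measured 80.0, 87.6 and 83.5 CPM with siCTR, 65.2, 67.8 and 64.9 CPM with siMYCN and 80.1, 82.4 and 73.8 CPM with siHAND2. The siMYCN libraries were below all others, and the siHAND2 libraries overlapped siCTR. EIF4EBP1 fell in siMYCN (log2 fold change -0.34, SE 0.051, limma adjusted p = 8.56e-05), did not pass in siHAND2 (log2 fold change -0.087, SE 0.051, limma adjusted p = 0.218), and was higher in siHAND2 than in siMYCN (log2 fold change 0.25, SE 0.051, limma adjusted p = 0.00135). EIF4EBP2, the form most abundant in brain, measured 149.6, 145 and 148 CPM with siCTR, 146, 144 and 159.8 CPM with siMYCN and 147, 163 and 168 CPM with siHAND2. Its groups overlapped and it did not pass in either comparison; its log2 fold change in siMYCN, 0.024, turned negative under median-ratio rescaling and quantile normalization. Without siHAND2 replicate 1 its siHAND2 difference passed (log2 fold change 0.17, limma adjusted p = 0.0230). EIF4EBP3 lay at 0.277 to 0.326 CPM in siCTR, 0.0598 to 0.122 CPM in siMYCN and at most 0.219 CPM in siHAND2, with 1 siHAND2 library listed at the table's constant of 0.0001. It was not tested, and the readthrough gene ANKHD1-EIF4EBP3, listed apart at 11.2 to 19.0 CPM, shares its exons.

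In the scanning and subunit-joining group, the sum over the 10 genes was 1013 ± 11.0 CPM in siCTR, 1013 ± 7.35 CPM in siMYCN and 998.8 ± 31.2 CPM in siHAND2. The 2 called lower in siMYCN, EIF2D and EIF2A, are known for delivering initiator tRNA outside the usual eIF2 route. EIF2D (chromosome 1, 206571292 to 206612465, minus strand), which can bring tRNA to the ribosome without GTP and helps recycling, measured 24.4, 24.97 and 21.4 CPM with siCTR, 18.2, 17.8 and 17.1 CPM with siMYCN and 21.7, 21.0 and 20.3 CPM with siHAND2. It was lower in siMYCN without overlap (log2 fold change -0.39, SE 0.066, limma adjusted p = 2.31e-04), while in siHAND2 the groups overlapped (log2 fold change -0.16, SE 0.066, limma adjusted p = 0.0778). The siHAND2 difference passed under median-ratio rescaling (limma adjusted p = 0.0341) and quantile normalization (0.0366), with the replicate block (0.0454) and without siCTR replicate 3 (0.0213). EIF2A (chromosome 3, 150546678 to 150586016, plus strand), a single-chain protein that is not part of eIF2, measured 121, 117.7 and 118.9 CPM with siCTR, 95, 98.4 and 94.1 CPM with siMYCN and 97.7, 95.5 and 106 CPM with siHAND2. All knockdown libraries were below siCTR, with a fall in siMYCN (log2 fold change -0.31, SE 0.046, limma adjusted p = 7.39e-05) and in siHAND2 (log2 fold change -0.25, SE 0.046, limma adjusted p = 5.69e-04). EIF1B, a paralog of the start-codon fidelity factor EIF1, rose in siMYCN (log2 fold change 0.28, SE 0.074, limma adjusted p = 0.00708) and was named after its values were seen. EIF1AY, the copy of EIF1AX on the Y chromosome, fell in siHAND2 (log2 fold change -0.17, SE 0.061, limma adjusted p = 0.0428), but reads may be shared with EIF1AX, which did not pass (log2 fold change 0.068, SE 0.043, limma adjusted p = 0.257), and leaving out single libraries ended the call in 6 of 9 fits (limma adjusted p = 0.154 without siCTR replicate 1, 0.0923 without siCTR replicate 2, 0.0546 without siCTR replicate 3, 0.0522 without siMYCN replicate 2, 0.0976 without siHAND2 replicate 1 and 0.210 without siHAND2 replicate 2). EIF1, EIF5 and EIF5B, which act at start-codon choice, GTP hydrolysis and subunit joining, did not pass in either knockdown, and neither did EIF6, which keeps the subunits apart. EIF6 lay below siCTR without overlap in both (log2 fold change -0.10, limma adjusted p = 0.0989 in siMYCN, and -0.12, limma adjusted p = 0.0696 in siHAND2). Its difference passed in both under median-ratio rescaling and quantile normalization, and in siHAND2 also with the replicate block.

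eIF2 carries initiator tRNA, and eIF2B recharges it with GTP. EIF2S1, the alpha subunit that stress kinases phosphorylate, measured 133, 128 and 130.2 CPM with siCTR, 124, 127 and 129 CPM with siMYCN and 123, 123 and 135 CPM with siHAND2. Its groups overlapped, and the 95% confidence intervals of its log2 fold change were -0.14 to 0.053 in siMYCN and -0.13 to 0.059 in siHAND2. EIF2S3 (chromosome X, 24054946 to 24078810, plus strand), the GTP-binding gamma subunit, measured 246, 249 and 241 CPM with siCTR, 199, 204 and 203 CPM with siMYCN and 218, 219 and 244 CPM with siHAND2. It fell in siMYCN without overlap (log2 fold change -0.28, SE 0.045, limma adjusted p = 1.81e-04). In siHAND2 the groups overlapped through siHAND2 replicate 3; the difference did not pass with all libraries (log2 fold change -0.11, SE 0.045, limma adjusted p = 0.0704) and passed without that library (log2 fold change -0.17, limma adjusted p = 0.00282). EIF2S2, the beta subunit, fell in siMYCN (log2 fold change -0.19, SE 0.044, limma adjusted p = 0.00268). EIF2S3B, a near copy of EIF2S3, lay at 0.259 to 0.627 CPM and was not tested.

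Of the eIF2B subunits, EIF2B3 (chromosome 1, 44850522 to 44986722, minus strand), which forms the catalytic part of the complex with EIF2B5, measured 27.6, 31.6 and 25.7 CPM with siCTR, 24.97, 23.3 and 24.6 CPM with siMYCN and 25.3, 24.5 and 24.8 CPM with siHAND2. The siMYCN libraries were below all siCTR libraries (log2 fold change -0.21, SE 0.068, limma adjusted p = 0.0263), but the call depended on single libraries (limma adjusted p = 0.169 without siCTR replicate 2, 0.0959 without siMYCN replicate 2 and 0.0510 without siMYCN replicate 3). In siHAND2 it did not pass (log2 fold change -0.17, SE 0.068, limma adjusted p = 0.0647) and passed without siCTR replicate 3 (limma adjusted p = 0.0196). The other 4 subunits did not pass in either knockdown against siCTR, with log2 fold changes from -0.13 to 0.041.

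The eIF2 kinases stop general initiation in response to different stresses. EIF2AK1 (chromosome 7, 6022247 to 6059175, minus strand), the heme-regulated kinase, measured 116, 118.5 and 120.2 CPM with siCTR, 111, 112 and 112 CPM with siMYCN and 109, 104 and 107 CPM with siHAND2. Both knockdowns lay below siCTR, and the fall passed in siHAND2 (log2 fold change -0.15, SE 0.039, limma adjusted p = 0.00932) and not in siMYCN (log2 fold change -0.083, SE 0.039, limma adjusted p = 0.115); the siMYCN difference passed under median-ratio rescaling (log2 fold change -0.14, limma adjusted p = 0.00888). EIF2AK3 (PERK, the kinase of endoplasmic reticulum stress) measured 62.8, 65.9 and 63.8 CPM with siCTR, 66.4, 69.4 and 68.3 CPM with siMYCN and 58.8, 53.0 and 62.0 CPM with siHAND2. The siMYCN libraries lay above siCTR and the siHAND2 libraries below it. Neither passed against siCTR (log2 fold change 0.084, SE 0.054, limma adjusted p = 0.246 and log2 fold change -0.15, SE 0.054, limma adjusted p = 0.0501), and the direct difference between the knockdowns did (log2 fold change -0.23, SE 0.054, limma adjusted p = 0.00430). The siHAND2 difference, just above the threshold, passed in 5 of the 18 alternative settings: without siHAND2 replicate 3 (limma adjusted p = 0.00734), under median-ratio rescaling (0.0110) and quantile normalization (0.0217), with the replicate block (0.0305) and with the filter of 5 CPM (0.0454). EIF2AK4 (GCN2, the kinase of amino acid shortage) measured 80.5, 80.8 and 78.0 CPM with siCTR, 78.9, 71.7 and 77.5 CPM with siMYCN and 72.4, 74.7 and 74.4 CPM with siHAND2. It did not pass in siMYCN (log2 fold change -0.068, SE 0.046, limma adjusted p = 0.269) or siHAND2 (log2 fold change -0.11, SE 0.046, limma adjusted p = 0.0850), and passed in both under median-ratio rescaling (limma adjusted p = 0.0410 and 0.0174).

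Set directly against siMYCN, siHAND2 had 16 members called higher and 4 called lower (EEF1A2, EIF1B, EIF2AK3 and EIF2B2), beside 26.9% of all genes called, 11.4% higher and 15.5% lower. Of these 20 calls, 11 held under all 18 alternative settings, while EIF4G3 was lost in 11 settings, EIF1B in 9, EIF2B2 in 7 and EIF3M in 3. The median log2 difference was 0.032 over the members and -0.01 over all genes. The higher members were 3 elongation factors, 6 eIF3 subunits, 3 eIF4 genes, EIF4EBP1, EIF2D, EIF2S2 and EIF2S3. The elongation factors among them were EEF1A1, EEF1B2 and EEF1G, and the call of EEF1A1 (log2 fold change 0.17, SE 0.056, limma adjusted p = 0.0284) did not hold without some libraries (limma adjusted p = 0.0835 without siMYCN replicate 1, 0.0802 without siMYCN replicate 3, 0.0799 without siHAND2 replicate 1 and 0.0954 without siHAND2 replicate 3). The direct call of EIF2D (log2 fold change 0.23, SE 0.066, limma adjusted p = 0.0146) was lost without 1 library (limma adjusted p = 0.0575 without siMYCN replicate 3), as was that of EIF2S3 (log2 fold change 0.16, SE 0.045, limma adjusted p = 0.0125; limma adjusted p = 0.0502 without siMYCN replicate 1). The direct call of EIF4B (log2 fold change 0.14, SE 0.046, limma adjusted p = 0.0373) was lost without any of 4 libraries (limma adjusted p = 0.128 without siMYCN replicate 2, 0.0737 without siMYCN replicate 3, 0.106 without siHAND2 replicate 1 and 0.0580 without siHAND2 replicate 2). For EEF2, EIF5A and EEF2K, which had fallen in both knockdowns, the 95% confidence intervals of the direct log2 difference were -0.099 to 0.16, -0.11 to 0.087 and -0.093 to 0.12.

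The wider pathway was read from 5 further lists of genes, beside the 11.4% of all genes called lower and 24.5% called higher in siMYCN, and 11.8% and 18.1% in siHAND2. Of 13 tested genes of termination, ribosome recycling and poly(A) binding, 6 fell in siMYCN, and 4 fell and 2 rose in siHAND2, or 46.2%, 30.8% and 15.4%. PABPC1, the poly(A)-binding protein that joins the mRNA tail to eIF4G, moved most in both, from a mean of 378 CPM in siCTR to 247 CPM in siMYCN (log2 fold change -0.61, limma adjusted p = 1.84e-07) and 289 CPM in siHAND2 (log2 fold change -0.38, limma adjusted p = 2.09e-05). Of the 8 genes that make hypusine on eIF5A and diphthamide on eEF2, 4 fell (50%) and 1 rose in siMYCN, and 1 fell and 1 rose in siHAND2 (12.5% each), the latter close to or below the share over all genes. The 4 that fell in siMYCN were diphthamide genes (DPH1, DPH2, DPH5 and DPH6). The 1 that rose, DPH3, is a diphthamide gene too (log2 fold change 0.29, limma adjusted p = 0.00129 in siMYCN, and 0.19, limma adjusted p = 0.0261 in siHAND2). The hypusine enzymes DHPS and DOHH did not pass in either knockdown (in siMYCN, log2 fold change -0.020, limma adjusted p = 0.777, and 0.30, limma adjusted p = 0.0646). DPH2, a diphthamide enzyme, fell in both (log2 fold change -0.51, limma adjusted p = 8.44e-04, and -0.37, limma adjusted p = 0.00945). Of 15 genes of mTOR and MAPK signalling to initiation, 3 fell (20%) and 2 rose (13.3%) in siMYCN, and 1 fell and 1 rose in siHAND2 (6.67% each), so only the share that fell in siMYCN was above that over all genes. RPS6 was 1 of the 3 (log2 fold change -0.61) and the only 1 that fell in siHAND2 (-0.24). It is a ribosomal protein gene and was also counted among those above, so this share is not one of signalling genes alone. Elsewhere in this list, DDIT4, an inhibitor of mTOR complex 1 induced by stress, fell in siMYCN (log2 fold change -0.65, limma adjusted p = 3.73e-07). TSC1, an upstream inhibitor of mTOR, rose in siHAND2 (log2 fold change 0.28, limma adjusted p = 8.25e-04) and in siMYCN (log2 fold change 0.27, limma adjusted p = 0.00115). The remaining siMYCN calls of the list were PDCD4, which fell (log2 fold change -0.28, limma adjusted p = 0.00106), and RPTOR, which rose (log2 fold change 0.17, limma adjusted p = 0.0241). Of 11 tested genes of the integrated stress response, which eIF2 phosphorylation starts, 1 fell (9.09%) and 2 rose (18.2%) in siMYCN, and 1 fell (9.09%) and 3 rose (27.3%) in siHAND2; except for the last, these shares were below those over all genes. ATF5 moved most in siMYCN (log2 fold change 0.63, limma adjusted p = 3.93e-04) and CHAC1 in siHAND2 (log2 fold change 0.54, limma adjusted p = 0.00829), both at means below 9 CPM. Of 9 mitochondrial translation factors, 5 fell (55.6%) and 1 rose (11.1%) in siMYCN and 3 fell in siHAND2 (33.3%), with MRRF, the mitochondrial recycling factor, falling most in each (log2 fold change -0.36 and -0.25).

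The promoters of the members were searched for CACGTG, the letters of the canonical E-box to which MYC family proteins bind with MAX. The windows are RefSeq's (GRCh38.p14), from 250 bases before to 50 bases after each annotated start, both strands being covered since the motif is its own reverse complement; 53 of the 67 members had at least 1. CACGTG was in 14 of 70 member windows (20%), in 7.26% of all 35116 windows and in 9.43% of the windows of genes tested. By call in siMYCN it was in 6 of 26 windows of members called lower (23.1%) and in 6 of 34 windows of members that did not pass (17.6%). By call in siHAND2 the order was the other way, with 4 of 22 windows of members called lower (18.2%) and 9 of 37 windows of members that did not pass (24.3%). Of the windows of members called higher, 1 of 6 held it in siMYCN and 0 of 7 in siHAND2. A gene can have several windows, which are not independent. Counted by gene, 6 of 20 members called lower and 6 of 27 that did not pass held it in siMYCN. In siHAND2 these counts were 4 of 16 and 9 of 31. A match describes the sequence and does not show binding.

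The stretches below, 5′ to 3′ on the strand of the gene with CACGTG in capitals, show members with the motif whose transcripts fell in both knockdowns (EEF1AKMT4 and EEF2K), rose in siMYCN (EIF1B), or did not pass in either (EIF5A2 and EIF4A3). All lie upstream of the annotated start.
EEF1AKMT4, chr3:184249422-184249671, plus strand: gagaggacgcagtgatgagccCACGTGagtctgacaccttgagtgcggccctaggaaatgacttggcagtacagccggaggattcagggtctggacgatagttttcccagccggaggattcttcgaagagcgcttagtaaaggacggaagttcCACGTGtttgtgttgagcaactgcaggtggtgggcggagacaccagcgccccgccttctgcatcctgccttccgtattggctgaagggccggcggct
EEF2K, chr16:22206158-22206277, plus strand: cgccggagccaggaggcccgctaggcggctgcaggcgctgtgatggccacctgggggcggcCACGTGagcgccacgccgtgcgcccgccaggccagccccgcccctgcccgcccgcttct
EIF1B, chr3:40309587-40309706, plus strand: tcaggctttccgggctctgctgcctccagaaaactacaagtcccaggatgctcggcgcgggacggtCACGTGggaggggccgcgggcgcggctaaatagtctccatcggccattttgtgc
EIF5A2, chr3:170908645-170908837, minus strand: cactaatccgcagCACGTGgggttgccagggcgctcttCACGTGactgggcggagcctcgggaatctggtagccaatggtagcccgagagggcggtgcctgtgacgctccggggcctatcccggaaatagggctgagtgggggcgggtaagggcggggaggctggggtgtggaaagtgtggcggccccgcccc
EIF4A3, chr17:80147152-80147278, minus strand: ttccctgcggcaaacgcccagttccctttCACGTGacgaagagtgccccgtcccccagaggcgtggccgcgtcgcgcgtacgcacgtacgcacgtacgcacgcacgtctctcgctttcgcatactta

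In these stretches EEF1AKMT4, the member with the largest fall, has the motif at 229 and 97 bases before the start, and EEF2K has it at 59 bases. EIF1B, which rose in siMYCN, has it at 54 bases, and EIF5A2, whose groups overlapped, has it at 187 and 162 bases. EIF4A3 has it at 121 bases. These distances are to the RefSeq start, and the printed stretches of EIF5A2 and EIF4A3 end 8 and 24 bases before it. In the deposited data the starts of EIF5A2 and EIF4A3 lie 7 and 23 bases upstream of RefSeq's.

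A feature at the start itself was also looked for, after the values were seen. Messenger RNAs of ribosomal proteins and several translation factors begin with a C followed by a run of C or T letters, known as the 5′ terminal oligopyrimidine (TOP) motif, through which mTOR and LARP1 control their translation. Taking as a match a C at the annotated start with at least 4 C or T letters after it, 13 of 70 member windows held it (18.6%), beside 4.07% of all windows and 5.17% of those of genes tested. These were EEF1A1, EEF1B2, EEF2, EIF2A, EIF2D, EIF2S3, EIF2S3B, EIF3D, EIF3F, EIF3K, EIF3M, EIF4A2 and EIF4B. Of the 12 tested, 11 were called lower in siMYCN, EIF4A2 being the exception, and 7 in siHAND2. Of 38 tested members with a window but no match, 9 were called lower in each comparison. Among ribosomal protein genes with the match, 47 of 47 were called lower in siMYCN and 34 of 47 in siHAND2. Among the 709 other genes with it, 18.9% were called lower in each comparison, beside 11.0% in siMYCN and 11.9% in siHAND2 of the 9539 other genes without it. Of the 709, 23% were called higher in siMYCN and 17.6% in siHAND2, beside 26.8% and 19.2% of the 9539. The median log2 fold change of the 709 was 0.019 in siMYCN and 0.0049 in siHAND2. Annotated starts can differ from those used in LAN5 cells, which were not measured.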

How the data were processed

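RNA of 9 LAN5 libraries, 3 per siRNA, was sequenced. The authors deposited 1 table of CPM for 25084 genes, with a constant of 0.0001 in every value and 1 column per library, per the file headers; all columns were used. STAR 2.5.1 and Partek are named per the submitters' processing notes; the counting of strand and of reads matching several genes is not given in the sources used here. Those notes name hg19 and GRCh37, but all 18215 symbols found in the GRCh38 gene table lay on the same chromosome and 91.4% had a start within 5000 bp, so positions are given as GRCh38, counted from 1.

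Low CPM values fell on a smallest step, which gave the depth. Only 80.1% to 82.3% of values up to 20 steps were whole within 0.02 of a step, below the 95% needed, so no count model was used. Values were taken as log2(CPM + 1) for genes that reached 1 CPM in 3 or more libraries, and all 3 groups entered 1 fit with limma 3.58.1 in R 4.3.3 (eBayes with an intensity trend, two-sided, Benjamini-Hochberg adjustment over 14495 genes, threshold 0.05). Fold changes on this scale understate the change of low genes. The fit was tested on simulated data.

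The members, role groups and lists were chosen with earlier results of these data known. Values in every library are given for 13 core members and, in each role group and comparison with siCTR, for the 2 called members of at least 5 CPM with the largest change; per-library values of EIF1AY are not given. Levels per kilobase use the length of the GENCODE canonical transcript. Counting errors cover counting only. Alternatives were pseudocounts of 0.1 and 5, no filter and a filter of 5 CPM, median-ratio and quantile normalization, a fit of 2 groups, no trend, replicate number as a block, and each library left out in turn. Promoter windows came from RefSeq; EEF2KMT, EIF3H, EIF2S2, EIF3A, EIF3E, EEF1D, EIF3CL, EEF1AKNMT, EIF3L, EIF3G, EIF4EBP1, EEF1A2, EIF2AK1 and EEF1AKMT3 were not among them.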

Additional observations from a re-analysis of the deposited data

How the results depend on the processing

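Of the counts of members and genes called, 155 of 162 recomputed under the alternatives stayed within 1.5 times of the reported count. In siHAND2 against siCTR, members called went from 27 to 17, and those called lower from 24 to 14, without the intensity trend. Leaving out 1 library at a time gave 15 to 27 members called and 12 to 24 called lower, the lowest without siCTR replicate 2. In siHAND2 against siMYCN, members called lower went from 4 to 2 without the trend and ranged from 2 to 5 with 1 library left out, the lowest without siMYCN replicate 1 or 3. The cause was not tested.

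Changes of sign occurred where the log2 fold change was close to 0. Under median-ratio rescaling and quantile normalization, EIF4E turned to -0.045 and -0.050 in siMYCN, to -0.036 and -0.032 in siHAND2 and to 0.0089 and 0.018 between the knockdowns. EIF4EBP2 turned to -0.035 and -0.041 in siMYCN, and EIF5A to 0.0052 and 0.011 between the knockdowns; EEF2 turned to -0.025 there under quantile normalization. With 1 library left out, EIF4E ranged from -0.0099 to 0.030 in siMYCN and -0.027 to 0.028 in siHAND2, and EIF4EBP2 from -0.022 to 0.052 in siMYCN. Between the knockdowns the ranges were -0.013 to 0.096 for EEF2, -0.013 to 0.047 for EEF2K, -0.039 to 0.030 for EIF2S1, -0.067 to 0.018 for EIF3A, -0.018 to 0.084 for EIF3B, -0.042 to 0.019 for EIF4E, -0.036 to 0.028 for EIF5A and -0.051 to 0.056 for EIF5A2. Quantile normalization sets EEF1A1, the highest gene in every library, to the same value by construction.

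Replicate numbers are shared between groups, and the deviations of same-numbered libraries from their group means correlated at r from -0.04 to 0.31. Only replicate 2 of siHAND2 and siMYCN gave a negative value, and 6 of 9 libraries correlated best with their own number in both other groups. The main fit left the replicate number out. With the replicate number as a block, 33 members were called in siMYCN, 34 in siHAND2 and 23 between the knockdowns, and 5895, 5089 and 4689 genes in all. The main fit called 32, 27 and 20 members, and 5209, 4339 and 3892 genes in all.

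The data hold 3 libraries a group, 1 cell line and 1 siRNA per target, and members below 1 CPM were not compared.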
